A study of Homo sapiens with 24 samples.

Results

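The insulin-like growth factor (IGF) binding proteins IGFBP1 to IGFBP7 were taken by symbol from the deposited expression table, in which 7 of 60564 rows carried these names. The family was chosen by measured values of these libraries, in particular the FPKM of IGFBP3 in the knockdown libraries and in both controls of each line. IGFBP3 in every comparison, and every member in the knockdown comparisons, is therefore described by its values without a test. The other members were tested where NDUFS6 was overexpressed, between the empty vector controls and between the cell lines. The control libraries of these tests also served in the knockdown comparisons, so the tests are not fully independent of the choice.

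RNA sequencing had measured human neuroblastoma cells in culture: SK-N-BE(2), a line with amplified MYCN, and SH-SY5Y, a line without it. NDUFS6, an accessory subunit of respiratory complex I, had been lowered by a short hairpin RNA from a lentivirus (knockdown) or raised with its full-length coding sequence (overexpression). The 24 libraries formed 8 groups of 3: in each line a knockdown, an overexpression, and an empty vector control for each of the constructs. Cells of all 8 groups had been infected with lentivirus, selected with puromycin and grown in the same medium with fetal bovine serum, itself a source of IGFs and of their binding proteins as protein, not as human RNA. The labels name 1 batch and give the 3 libraries per group as biological replicates. Since separate infections are not stated, a p-value reflects library-to-library spread, and that spread may be only technical. The labels do not say whether the cells were clones or pools, or how many hairpins were used.

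The IGFBPs are secreted proteins that hold IGF1 and IGF2 in the space around cells, lengthen their life and keep them from, or deliver them to, the IGF1 receptor. Proteases cut the binding proteins and so free the growth factors, and several IGFBPs also bind matrix or cell surface proteins without any IGF. IGF2 is a known growth factor of neuroblastoma cells, made by the cells themselves.

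The genes sit as 2 neighbouring pairs and 3 single genes in hg38. IGFBP1 (ENSG00000146678, chr7:45888357-45893668, plus strand) and IGFBP3 (ENSG00000146674, chr7:45912245-45921874, minus strand) are separated by 18576 bases. IGFBP2 (ENSG00000115457, chr2:216632828-216664436, plus strand) and IGFBP5 (ENSG00000115461, chr2:216672105-216695525, minus strand) are separated by 7668 bases. IGFBP4 (ENSG00000141753) lies at chr17:40443461-40457731 on the plus strand, and IGFBP6 (ENSG00000167779) at chr12:53097436-53102345 on the plus strand. IGFBP7 (ENSG00000163453) lies at chr4:57030773-57110385 on the minus strand. None of the 7 shares exons with another gene on its own strand in GENCODE release 29. On the opposite strand, IGFBP5 exons overlap AC007563.2, and IGFBP7 exons overlap IGFBP7-AS1 and POLR2B. The libraries were strand-specific. No source used here gives the strand setting of the counting, and the values of IGFBP5 and IGFBP7 are therefore uncertain in that respect.

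The promoters of IGFBP3, IGFBP4 and IGFBP5 are shown because these genes had the widest spread of log2(FPKM + 1) over the 8 groups. Each line holds the 250 bases before the RefSeq start (GRCh38.p14), read 5′ to 3′ on the gene's strand. The IGFBP3 window is chr7:45921273-45921522 on the minus strand, inside the longer GENCODE gene. The IGFBP4 window is chr17:40443200-40443449 on the plus strand, and the IGFBP5 window is chr2:216695550-216695799 on the minus strand. Capitals mark matches, on either strand, to the TATA box letters TATANA or the GC box letters GGGCGG.
IGFBP3: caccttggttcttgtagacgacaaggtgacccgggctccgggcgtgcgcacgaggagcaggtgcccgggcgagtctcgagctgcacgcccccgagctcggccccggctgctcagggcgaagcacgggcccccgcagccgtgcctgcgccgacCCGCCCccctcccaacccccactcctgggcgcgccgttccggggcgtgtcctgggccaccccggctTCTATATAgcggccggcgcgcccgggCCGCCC
IGFBP4: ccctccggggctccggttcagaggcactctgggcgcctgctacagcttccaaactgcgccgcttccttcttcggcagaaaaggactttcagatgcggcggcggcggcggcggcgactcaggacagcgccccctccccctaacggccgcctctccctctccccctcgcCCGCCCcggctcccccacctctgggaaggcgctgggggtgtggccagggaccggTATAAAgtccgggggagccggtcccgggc
IGFBP5: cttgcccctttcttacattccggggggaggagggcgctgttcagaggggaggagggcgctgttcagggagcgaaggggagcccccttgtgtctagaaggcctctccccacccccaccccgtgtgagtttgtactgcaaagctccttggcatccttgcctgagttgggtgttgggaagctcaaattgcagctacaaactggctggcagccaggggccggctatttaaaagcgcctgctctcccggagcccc
IGFBP3 had 2 overlapping TATA box matches, the nearer beginning 30 bases before the start, and 2 GC box matches, and IGFBP4 had 1 of each, its TATA box match beginning 29 bases before the start. IGFBP5 had neither, which says only that these letters are not in this window. Of 35116 RefSeq promoter windows of this length, 17.7% held TATANA and 42.6% held GGGCGG. G and C made up 76% of the IGFBP3 window, 71.6% of the IGFBP4 window and 61.2% of the IGFBP5 window, against a median of 58% over all windows. No match to the AP-1 letters TGANTCA (6.57% of windows), to the C/EBP-ATF letters TGATGNAA (3.14%) or to the hypoxia core ACGTG (18.5%) was found in the windows of IGFBP2 to IGFBP6. E-box letters CANNTG, which 61.8% of windows hold, occurred once in the IGFBP3 window, once in the IGFBP4 window and nowhere in the IGFBP5 window. The table held entries for 5 of the 7 members, and none for IGFBP1 or IGFBP7.

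Values are FPKM, fragments per kilobase of transcript, relative to all mapped fragments, so levels of different genes can be compared. Depth is unknown and no counting error can be given. The FPKM total of a library lay between 249708 and 276091, and 12607 to 14018 genes reached 1 FPKM in it. NDUFS6 went with the labels: it averaged 1.33 FPKM in SK-N-BE(2) knockdown against 11.2 in its control, and 4.02 in SH-SY5Y knockdown against 11.5. It averaged 17.2 FPKM in SK-N-BE(2) overexpression against 12.8 in its control, and in SH-SY5Y overexpression it averaged 208 FPKM, against 10.2 to 11.5 FPKM in the control libraries, so the size of the overexpression differed widely between the lines. The adrenergic neuroblastoma genes were expressed in all groups: the 12 listed markers summed to between 744 and 930 FPKM in SK-N-BE(2) knockdown and between 905 and 935 in SH-SY5Y knockdown, and to between 1296 and 1859 in the other 6 groups. Of these markers TH, the first enzyme of catecholamine synthesis, was under 1 FPKM on average in every SH-SY5Y group. Schwann cell markers summed to at most 2.92 FPKM and endothelial markers to at most 6.72 FPKM in any library.

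**Figure D1:**
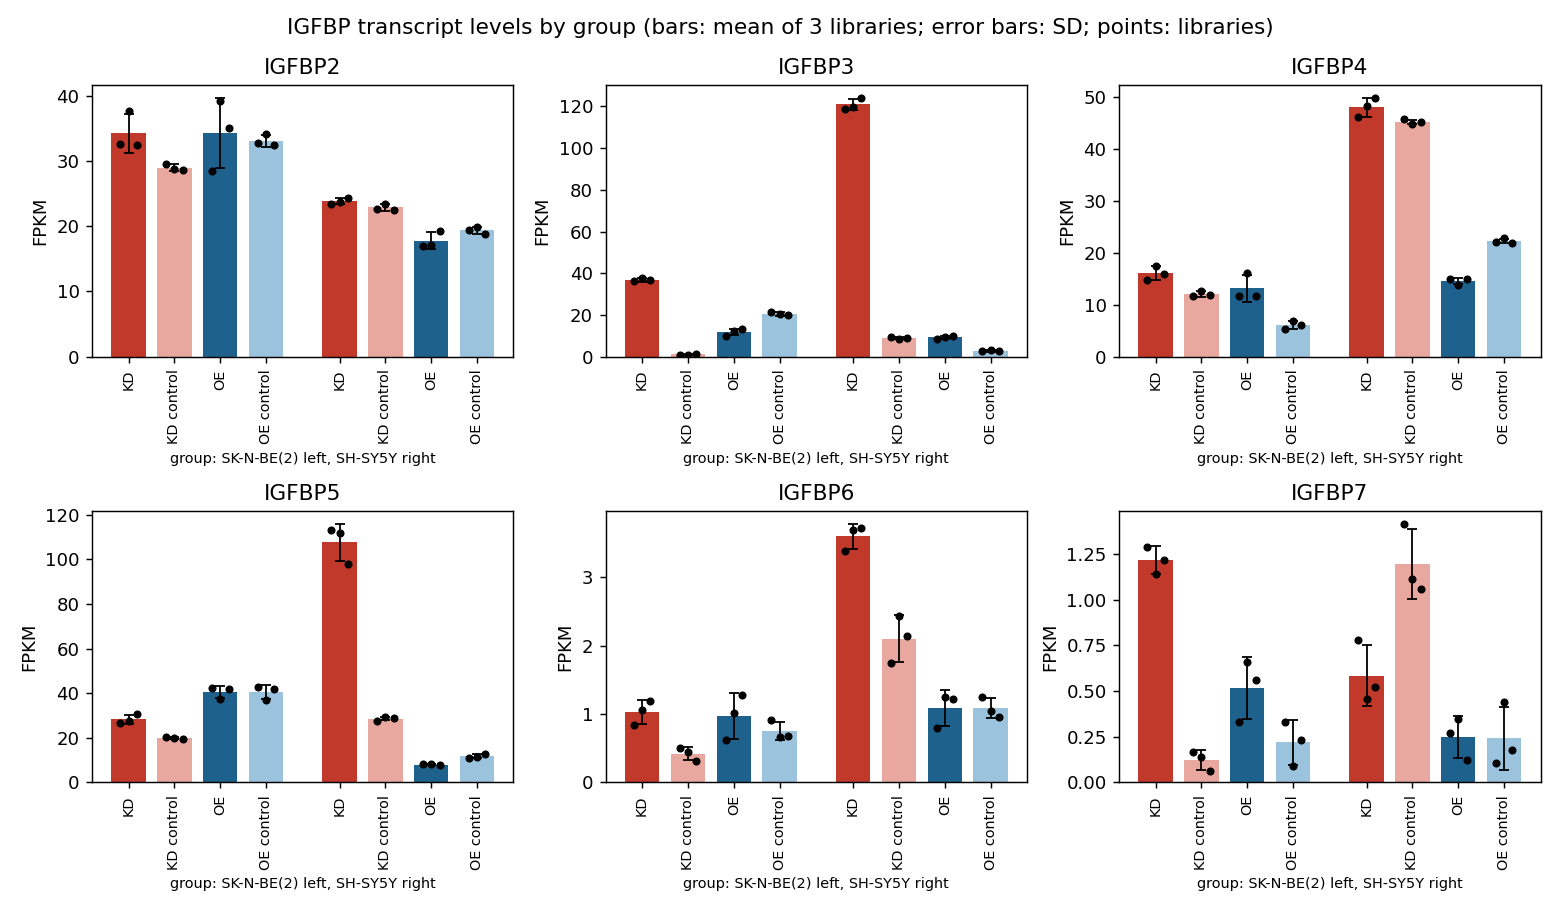
Transcript levels of IGFBP2 to IGFBP7 in FPKM (linear axes that differ between panels) in the 8 groups, SK-N-BE(2) on the left and SH-SY5Y on the right of each panel. Bars are means of 3 libraries, error bars SD and points single libraries. The tallest bars are SH-SY5Y knockdown for IGFBP3 (121 FPKM) and IGFBP5 (108 FPKM).

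IGFBP3, the main IGF carrier of human serum, ranged more widely than any other member, with group means between 1.04 and 121 FPKM. In SK-N-BE(2) the knockdown libraries held 36.1, 37.6 and 36.6 FPKM, against 1.02, 1.02 and 1.09 FPKM in their own control, and 21.2, 20.4 and 19.7 FPKM in the overexpression control. Every knockdown library was above every library of both controls, but the controls themselves lay far apart. The knockdown mean was 35.3 times that of its own control (4.21 on the log2(FPKM + 1) scale) and 1.80 times that of the overexpression control (0.82). So the size of the IGFBP3 difference in SK-N-BE(2) depended on which empty vector served as the control.

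IGFBP3 in SH-SY5Y stood at 119, 120 and 124 FPKM after knockdown, against 9.30, 8.25 and 9.05 FPKM in the knockdown control, and 2.50, 3.15 and 2.68 FPKM in the overexpression control. Here too the knockdown libraries were above both controls without overlap. The knockdown mean was 13.7 times that of its own control (3.63, log2) and 43.6 times that of the overexpression control (5.02, log2). The controls lay in opposite order in the 2 lines. In SK-N-BE(2) the knockdown control was 19.6 times lower than the overexpression control (-3.39, log2), and in SH-SY5Y the knockdown control was 3.19 times as high as the overexpression control (1.39, log2). In both lines the libraries of the controls did not overlap.

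Overexpression of NDUFS6 gave IGFBP3 no common direction against the controls. SK-N-BE(2) overexpression libraries held 10.1, 12.1 and 13.2 FPKM, 1.73 times lower by the means than their own control (-0.75, log2) and 11.4 times as high as the knockdown control (2.64, log2). SH-SY5Y overexpression libraries held 8.39, 9.24 and 10.1 FPKM, 3.32 times their own control (1.44, log2). Set against the SH-SY5Y knockdown control they overlapped, with means of 9.23 and 8.87 FPKM (0.051, log2), and without replicate 3 of the overexpression group that difference was -0.0072. Ordered by mean, IGFBP3 ran from SH-SY5Y knockdown (121 FPKM) through SK-N-BE(2) knockdown (36.8), SK-N-BE(2) overexpression control (20.4), SK-N-BE(2) overexpression (11.8), SH-SY5Y overexpression (9.23), SH-SY5Y knockdown control (8.87) and SH-SY5Y overexpression control (2.78) to SK-N-BE(2) knockdown control (1.04). Among neighbours in this order, SH-SY5Y overexpression and the SH-SY5Y knockdown control had overlapping libraries, and the others did not. RNA of a whole culture cannot tell apart fewer expressing cells and less RNA per cell.

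**Figure D2:**
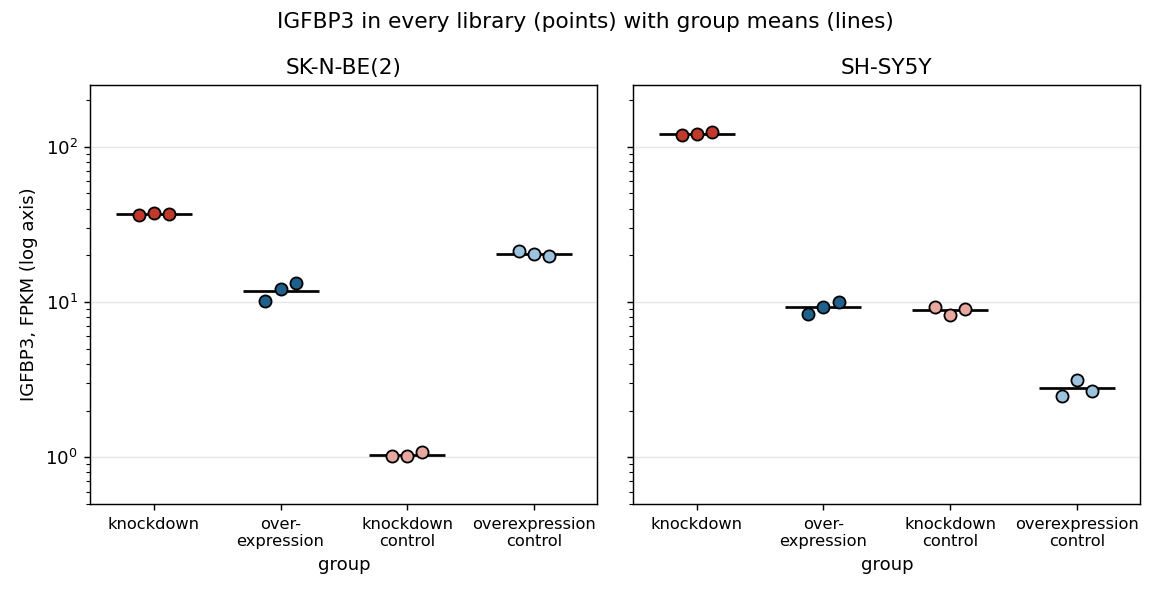
IGFBP3 in every library on a log axis of FPKM, with lines at the group means, in SK-N-BE(2) (left panel) and SH-SY5Y (right panel). In both panels the 3 knockdown libraries lie above all libraries of both controls, and the controls of SK-N-BE(2) stand at 1.04 and 20.4 FPKM.

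IGFBP5, which binds matrix and can form the serum complex as IGFBP3 does, followed in the SH-SY5Y knockdown. It was at 113, 112 and 98.1 FPKM in those libraries, 27.7, 29.2 and 28.8 FPKM in their own control, and 10.9, 11.4 and 12.7 FPKM in the overexpression control. The groups did not overlap, and the knockdown mean was 3.77 times that of its own control (1.88, log2) and 9.24 times that of the other (3.10, log2). In SK-N-BE(2) the knockdown libraries held 26.7, 27.4 and 30.6 FPKM, their own control 20.4, 20.0 and 19.6 FPKM, and the overexpression control 42.6, 37.1 and 42.0 FPKM. The knockdown was thus above its own control (1.41 times, 0.47 log2) and below the other (1.44 times lower, -0.51 log2), in both cases without overlap. Direction against the control of the other construct was opposite to that in SH-SY5Y, and this difference between the lines was not tested.

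IGFBP4, an IGF carrier that mostly blocks IGF action until PAPPA cuts it, was at 14.9, 17.5 and 16.0 FPKM in SK-N-BE(2) knockdown, 11.7, 12.7 and 11.8 FPKM in its own control, and 5.28, 6.92 and 6.11 FPKM in the overexpression control. In SH-SY5Y it was at 46.1, 48.3 and 49.8 FPKM in the knockdown, 45.8, 44.8 and 45.2 FPKM in its own control, and 22.2, 22.8 and 22.0 FPKM in the overexpression control. Knockdown libraries were above both controls in both lines. Against the own control the log2 difference was 0.38 in SK-N-BE(2) and 0.085 in SH-SY5Y, the last of which was -0.013 when values were scaled to a fixed sum. Against the overexpression control it was 1.27 in SK-N-BE(2) and 1.07 in SH-SY5Y.

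IGFBP2, a carrier abundant in the fetus and the brain, was the steadiest member, with a highest group mean 1.93 times its lowest. SK-N-BE(2) knockdown libraries held 32.7, 37.6 and 32.4 FPKM, against 29.5, 28.7 and 28.7 FPKM in their own control and 32.7, 34.2 and 32.5 FPKM in the overexpression control. SH-SY5Y knockdown libraries held 23.4, 23.7 and 24.3 FPKM, against 22.6, 23.4 and 22.6 FPKM in their own control and 19.4, 19.8 and 18.9 FPKM in the overexpression control. The log2 differences were small: 0.23 and 0.055 against the own control in SK-N-BE(2) and SH-SY5Y, and 0.043 and 0.28 against the other. The SH-SY5Y value of 0.055 was -0.041 when scaled to a fixed sum, and the SK-N-BE(2) value of 0.043, from overlapping libraries, was -0.026 without knockdown replicate 2.

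IGFBP6, which prefers IGF2 over IGF1, and IGFBP7, a weak IGF binder found around vessels, were low. IGFBP6 was at 0.844, 1.06 and 1.19 FPKM in SK-N-BE(2) knockdown, against 0.503, 0.449 and 0.309 FPKM in its own control, and at 3.39, 3.69 and 3.73 FPKM in SH-SY5Y knockdown, against 1.75, 2.43 and 2.14 FPKM in its own control. It was thus higher in the knockdown of both lines (0.52 and 0.57, log2). IGFBP7 was at 1.29, 1.14 and 1.22 FPKM in SK-N-BE(2) knockdown, against 0.165, 0.142 and 0.0636 FPKM in its own control, but at 0.776, 0.457 and 0.521 FPKM in SH-SY5Y knockdown, against 1.42, 1.11 and 1.06 FPKM in its own control. Against the own control, IGFBP7 was therefore the 1 member with non-overlapping knockdown libraries of opposite direction in the lines (0.98 and -0.47, log2), a difference that was not tested. At such levels the added 1 FPKM shrinks a log2 difference: the ratio of the IGFBP7 means was 9.84 in SK-N-BE(2). Against the overexpression control the log2 difference of IGFBP6 was 0.21 in SK-N-BE(2), with overlap, and 1.14 in SH-SY5Y, and that of IGFBP7 was 0.87 in SK-N-BE(2) and 0.36 in SH-SY5Y.

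IGFBP1, the insulin-controlled member made mostly by liver, was listed at 0 in 23 of the 24 libraries and at 0.0434 FPKM in 1 SH-SY5Y knockdown library. The other 6 members reached 1 FPKM in at least 3 libraries, the minimum for entering the fit. IGFBP2, IGFBP3, IGFBP4 and IGFBP5 did so in all 24 libraries, IGFBP6 in 14 and IGFBP7 in 6, all from SK-N-BE(2) knockdown and the SH-SY5Y knockdown control. Of these 6 members, 6 had higher libraries without overlap in SK-N-BE(2) knockdown than in its own control, where 62.2% of all 15903 tested genes did not overlap in either direction and 30.3% were higher. In SH-SY5Y 5 were higher and 1 was lower, beside 64.5% of all genes not overlapping. Against the overexpression control, 3 were higher, 1 lower and 2 overlapped in SK-N-BE(2) (52.8% of all genes not overlapping). All 6 were higher in SH-SY5Y, where 65.4% of all genes did not overlap in either direction and 30% were higher. These comparisons were among the values that chose the family, so nothing is read from the counts.

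Summed over the family, SH-SY5Y knockdown stood apart. The sum was 118 ± 4.97 FPKM in SK-N-BE(2) knockdown and 62.7 ± 0.966 in its own control, 101 ± 7.01 in overexpression and 101 ± 1.85 in its control (SD, n = 3 each). In SH-SY5Y it was 305 ± 3.76 FPKM in knockdown and 109 ± 0.327 in its own control, 51.0 ± 2.04 in overexpression and 57.5 ± 1.19 in its control. IGFBP3 made up 31.3% of the sum in SK-N-BE(2) knockdown and 1.66% in its control, 39.7% in SH-SY5Y knockdown and 8.15% in its control. IGFBP2 had the largest share in the SK-N-BE(2) knockdown control (46.3%), IGFBP5 in SK-N-BE(2) overexpression (40.2%) and its control (40.1%), and IGFBP4 in the SH-SY5Y knockdown control (41.6%) and overexpression control (38.9%). The most abundant member thus differed between the empty vector controls of SK-N-BE(2), while in SH-SY5Y it was IGFBP4 in both.

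**Figure D3:**
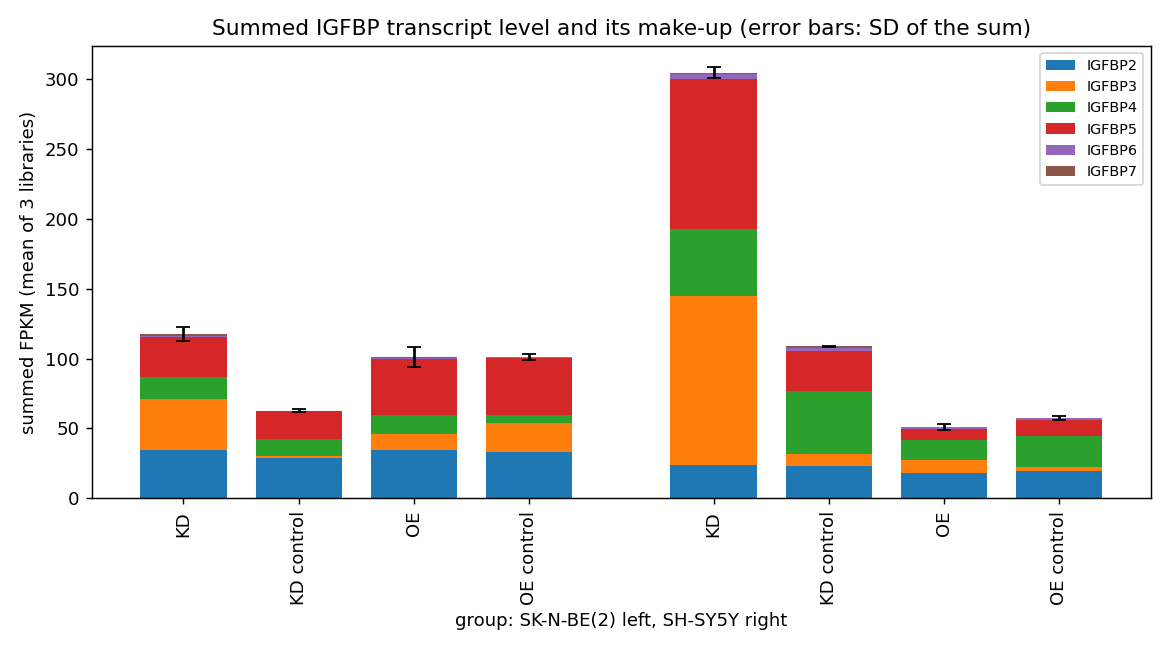
Summed FPKM of the IGFBP genes in each group (mean of 3 libraries), stacked by member, with the SD of the sum as error bar. SH-SY5Y knockdown reaches 305 FPKM, mostly IGFBP3 and IGFBP5, against 109 FPKM in its own control.

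The first tested question was whether overexpression of NDUFS6 changed the other members. In SK-N-BE(2), IGFBP4 rose to 11.6, 16.1 and 11.8 FPKM in the overexpression libraries, against 5.28, 6.92 and 6.11 FPKM in their control, without overlap. The log2 change was 0.99 (SE 0.0917, limma adjusted p 3.74e-07). IGFBP7 was also called higher, at 0.330, 0.661 and 0.559 FPKM against 0.333, 0.0916 and 0.233 FPKM, with overlapping libraries (0.31, SE 0.112, limma adjusted p 0.0412). This call did not hold without overexpression replicate 2 or 3 (adjusted p 0.187 and 0.114) or without control replicate 2 or 3 (0.157 and 0.0842). IGFBP5 was at 42.2, 37.6 and 41.8 FPKM in overexpression against 42.6, 37.1 and 42.0 FPKM in the control and was not called (adjusted p 1). IGFBP2, at 28.5, 39.2 and 35.1 FPKM in overexpression, and IGFBP6, at 0.621, 1.02 and 1.29 FPKM, were not called either (0.036 and 0.16, adjusted p 0.770 and 0.322). Without overexpression replicate 1, the lowest library of both, IGFBP2 (0.16, adjusted p 0.0442) and IGFBP6 (0.30, adjusted p 0.0467) would be called. Thus 2 of 5 tested members were called higher and 0 lower, beside 29.7% of all tested genes called in either direction.

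In SH-SY5Y, IGFBP4 and IGFBP5 fell. IGFBP4 held 15.0, 13.8 and 15.0 FPKM in overexpression against 22.2, 22.8 and 22.0 FPKM in its control (-0.58, SE 0.0917, limma adjusted p 6.08e-05). IGFBP5 held 8.08, 8.34 and 7.64 FPKM in overexpression against 10.9, 11.4 and 12.7 FPKM (-0.49, SE 0.0677, limma adjusted p 1.55e-05). Neither pair of groups overlapped. IGFBP2 at 16.9, 17.2 and 19.3 FPKM, IGFBP6 at 0.791, 1.25 and 1.22 FPKM and IGFBP7 at 0.272, 0.347 and 0.122 FPKM overlapped with their controls and were not called (adjusted p 0.270, 0.996 and 0.955). Of the 5 tested members, 2 were called lower, beside 32.6% of all tested genes called in either direction. Against the own controls IGFBP4 therefore moved in opposite directions in the lines, and the difference between the responses was 1.57 on the log2 scale (SE 0.130, limma adjusted p 3.22e-08). For IGFBP5 the difference was 0.49 (SE 0.0957, limma adjusted p 0.000559). IGFBP2, IGFBP6 and IGFBP7 were not called in this interaction (0.15, 0.16 and 0.30), in which 36.8% of all tested genes were, though IGFBP2 would be without SK-N-BE(2) overexpression replicate 1 (0.28, limma adjusted p 0.0101).

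Setting the same overexpression libraries against the empty vector of the knockdown construct changed which members were called. In SK-N-BE(2) IGFBP5 (0.98, limma adjusted p 1.31e-09), IGFBP6 (0.46, 0.00383), IGFBP7 (0.43, 0.00482) and IGFBP2 (0.22, 0.0277) were higher than in the knockdown control. IGFBP4, the clearest call against the own control, was not called here (0.10, limma adjusted p 0.424, and -0.045 without overexpression replicate 2). The IGFBP2 call was lost without overexpression replicate 2 (0.12, adjusted p 0.208) or 3 (0.20, 0.0905) and without control replicate 2 (0.22, 0.0692) or 3 (0.22, 0.0699). In SH-SY5Y all 5 tested members were lower than in the knockdown control, by between -0.35 (IGFBP2, limma adjusted p 0.000757) and -1.71 (IGFBP5, 8.34e-14). IGFBP7 reached 1 FPKM only in SK-N-BE(2) knockdown and the SH-SY5Y knockdown control, so its SH-SY5Y call is not independent of the filter. Over all tested genes 40.3% were called in SK-N-BE(2) and 55.4% in SH-SY5Y. The overexpression libraries are shared by both sets of comparisons.

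The members were therefore compared between the empty vector controls directly. Both controls also served in the knockdown comparisons that chose the family, so these p-values are not independent of that choice. In SK-N-BE(2) IGFBP4 was higher in the knockdown control than in the overexpression control (0.89, SE 0.0917, limma adjusted p 2.66e-07) and IGFBP5 was lower (-0.98, SE 0.0677, 9.54e-10). IGFBP2 (-0.19, adjusted p 0.0706), IGFBP6 (-0.30, 0.0538) and IGFBP7 (-0.11, 0.481) were not called. In SH-SY5Y all 5 were higher in the knockdown control: IGFBP5 by 1.23 (SE 0.0677, 2.78e-11), IGFBP4 by 0.99 (SE 0.0917, 5.71e-08), IGFBP7 by 0.83 (SE 0.112, 7.83e-06), IGFBP6 by 0.57 (SE 0.118, 0.000724) and IGFBP2 by 0.23 (SE 0.0775, 0.0258). The IGFBP2 call was lost without knockdown control replicate 1 (0.24, adjusted p 0.0525) or 2 (0.21, 0.0774) and without overexpression control replicate 1 (0.23, 0.0561) or 3 (0.21, 0.0807). IGFBP7 entered the fit only through SK-N-BE(2) knockdown and the SH-SY5Y knockdown control, where it was high. Its call between the SH-SY5Y controls is therefore not independent of the filter. Of all tested genes, 34.5% differed between the controls of SK-N-BE(2) and 36.2% between those of SH-SY5Y. IGFBP4 thus differed in the same direction between the vectors in both lines and IGFBP5 in opposite directions.

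**Figure D4:**
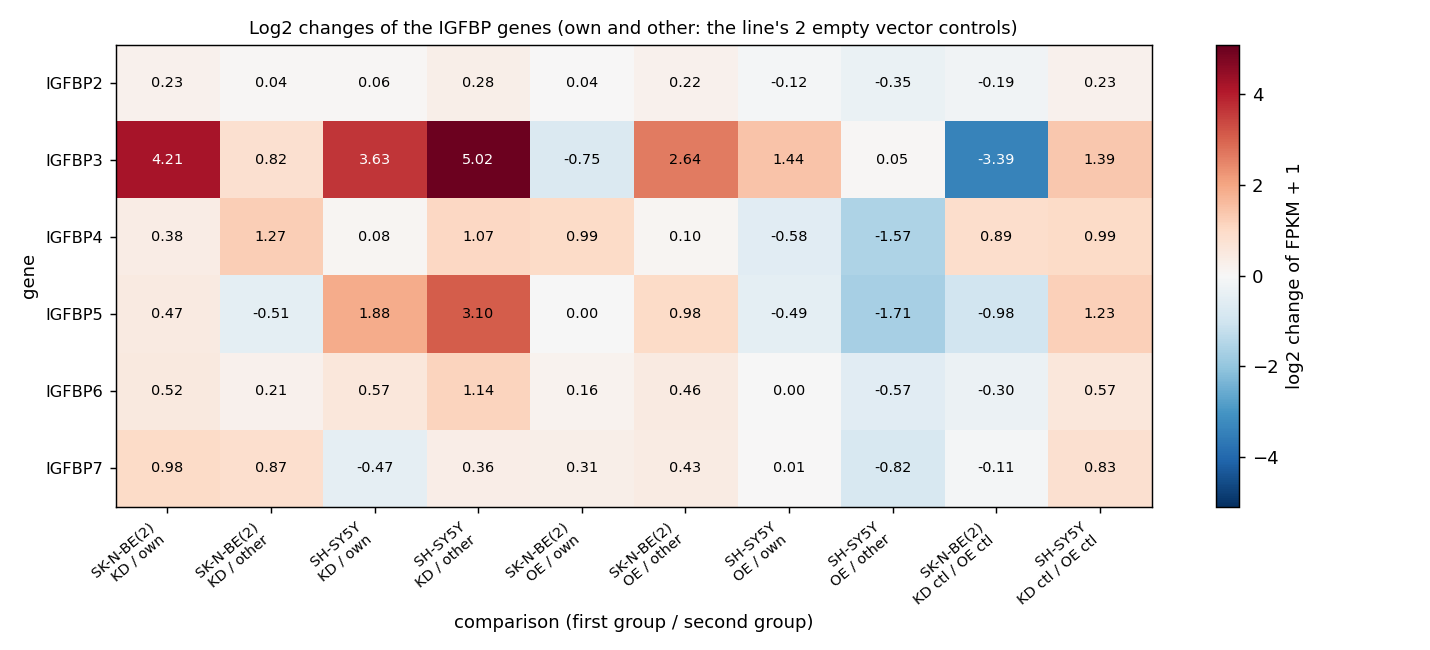
Log2 changes of IGFBP2 to IGFBP7, on the log2(FPKM + 1) scale, in each construct against both controls of its line and between the controls. IGFBP3 holds the extremes, with 5.02 in SH-SY5Y knockdown against the overexpression control and -3.39 between the SK-N-BE(2) controls.

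Between the lines, the controls of SK-N-BE(2) were compared with those of SH-SY5Y, 6 libraries each. IGFBP2 (0.54, SE 0.0548, limma adjusted p 2e-08) and IGFBP5 (0.61, SE 0.0479, 3.26e-10) were higher in SK-N-BE(2), and IGFBP4 (-1.77, SE 0.0649, 1.24e-15), IGFBP6 (-0.69, SE 0.0832, 2.38e-07) and IGFBP7 (-0.49, SE 0.0793, 1.11e-05) were lower. The libraries of the lines did not overlap for IGFBP2, IGFBP4 and IGFBP6, as for 50.7% of all tested genes. They did for IGFBP5 and IGFBP7. IGFBP5 averaged 20.0 FPKM in SK-N-BE(2) and 28.6 in SH-SY5Y knockdown controls, but 40.6 and 11.7 in the overexpression controls. IGFBP7 averaged 0.123 and 0.219 FPKM in the SK-N-BE(2) knockdown and overexpression controls, and 1.19 and 0.241 FPKM in those of SH-SY5Y. Its call thus rested on the SH-SY5Y knockdown control, through which it also entered the fit. The p-values reflect the spread within groups, not the difference between the vectors. All 5 tested members were called, in a comparison that called 77.3% of all tested genes. IGFBP3 overlapped between the lines (0.12), and its direction turned with a pseudocount of 0.1 (-0.066) and with scaling to a fixed sum (-0.037).

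Other genes of the IGF system were listed by role and tested in all comparisons. The ligand IGF1 was at or near 0 in all libraries, and INS averaged at most 0.225 FPKM in any group. IGF2, whose exons overlap INS-IGF2, AC132217.1 and another entry called IGF2, so that its value is uncertain, was the expressed ligand. It fell in SH-SY5Y knockdown to 3.31, 2.97 and 3.06 FPKM, against 27.0 to 31.7 FPKM in its own control (-2.88, SE 0.0966, limma adjusted p 2.09e-15), and it was also lower than in the overexpression control (-2.28, 4.39e-14). In SK-N-BE(2) knockdown it was at 10.5, 11.1 and 11.5 FPKM, against 12.0, 12.4 and 15.2 FPKM in its own control (-0.24, limma adjusted p 0.0445), and it rose in overexpression to a mean of 28.7 FPKM against 16.3 in the control (0.80, 8.35e-06). So in SH-SY5Y knockdown the IGFBP3 and IGFBP5 transcripts were at their highest and IGF2 at its lowest of the 8 groups.

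Of the 4 tested receptor genes, 3 rose and 1 fell in SH-SY5Y knockdown against its own control, beside 56.0% of all genes called. IGF1R, the receptor through which both IGFs signal, rose to a mean of 16.4 FPKM against 7.45 (1.04, SE 0.0900, limma adjusted p 4.66e-09). IGF2R, which takes up and clears IGF2, rose by 0.42 (adjusted p 0.000668), and INSRR, an orphan relative of the insulin receptor, by 0.79 (6.34e-09). INSR, the insulin receptor, fell by 0.33 (2.24e-05). All 4 were called in the same directions against the overexpression control, where 58.2% of all genes were called. In SK-N-BE(2) knockdown 1 rose and 1 fell, beside 55.7% of all genes called: INSRR (0.33) and INSR (-0.17), while IGF1R had -0.18 (limma adjusted p 0.0928) and IGF2R 0.089 (0.442). Against the overexpression control, where 47.7% of all genes were called, IGF1R (-0.28, limma adjusted p 0.0142) and INSR (-0.50, 1.35e-07) were lower, and INSRR had 0.14 (0.108). In overexpression, 1 rose and 2 fell in SK-N-BE(2) (29.7% of all genes called), and 3 fell in SH-SY5Y (32.6%). IGFALS, the third partner of the serum complex with IGFBP3, averaged under 0.2 FPKM in every group and shares exons with SPSB3.

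Of 7 tested proteases and inhibitors, 4 rose and 2 fell in SK-N-BE(2) knockdown, 3 rose and 3 fell in SH-SY5Y knockdown, 3 rose and 2 fell in SK-N-BE(2) overexpression, and 2 rose and 1 fell in SH-SY5Y overexpression, each against its own control. Over all tested genes 55.7%, 56.0%, 29.7% and 32.6% were called in these 4 comparisons. The median log2 change of the list was 0.38 in SK-N-BE(2) knockdown and -0.032 in SH-SY5Y knockdown, beside -0.013 and -0.011 over all tested genes. ADAM12, a metalloprotease that cuts IGFBP3 and IGFBP5, fell in both knockdowns, to a mean of 0.770 FPKM against 6.90 in SK-N-BE(2) (-2.16, SE 0.0561, limma adjusted p 1.09e-16) and to 3.13 against 6.90 in SH-SY5Y (-0.94, 1.66e-11). Its SK-N-BE(2) value too rested on the control: against the overexpression control, at 0.753 FPKM, the difference was 0.013 (limma adjusted p 0.876). STC2, a secreted inhibitor of PAPPA, rose in SK-N-BE(2) knockdown to a mean of 23.4 FPKM against 4.20 (2.23, SE 0.0709, 2.06e-15) and fell in SH-SY5Y knockdown to 0.680 against 4.59 (-1.73, 4.54e-14). Both calls held against the overexpression control (2.29 and -0.77). HTRA1, a serine protease that cuts IGFBP5, rose in both knockdowns (0.77, limma adjusted p 2.11e-05, and 1.29, 1.94e-08). Against the overexpression control HTRA1 was lower in SK-N-BE(2) knockdown (-0.43, adjusted p 0.00614) and higher in SH-SY5Y knockdown (3.05, 1.92e-14), the directions that IGFBP5 took.

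Of 7 tested receptor substrates and adaptors, 2 rose and 3 fell in SK-N-BE(2) knockdown and 2 rose and 4 fell in SH-SY5Y knockdown, with median log2 changes of -0.13 and -0.14 beside -0.013 and -0.011 over all tested genes, of which 55.7% and 56.0% were called. The adaptor SHC1, which shares exons with PYGO2, rose in both (0.25 and 0.55) but was lower in SK-N-BE(2) knockdown than in the overexpression control (-0.56, limma adjusted p 9.81e-11), GRB2 fell in both (-0.48 and -0.12), and SH2B1 fell in SK-N-BE(2) and rose in SH-SY5Y (-0.61 and 0.32). Of 16 genes of PI3K and AKT signalling, 3 rose and 4 fell in SK-N-BE(2) knockdown and 7 rose and 3 fell in SH-SY5Y knockdown, beside the same 55.7% and 56.0% of all genes, with median log2 changes of -0.086 and 0.10. With the overexpression control instead, 4 rose and 6 fell in SK-N-BE(2) knockdown (47.7% of all genes called) and 4 rose and 5 fell in SH-SY5Y knockdown (58.2%). PIK3R1, a regulatory subunit of PI3 kinase, rose in both (1.26, limma adjusted p 4.62e-12, and 0.34, 0.000257), though in SH-SY5Y it had -0.012 against the overexpression control (0.897). PIK3R2, a second regulatory subunit that shares exons with AC007192.1, fell in both (-0.69 and -0.34). FOXO1, a transcription factor that AKT keeps out of the nucleus and that shares exons with LINC00598, rose in SH-SY5Y knockdown (1.05, 8.07e-09) and had 0.22 in SK-N-BE(2) knockdown (0.0533). In overexpression against the own control, 2 rose and 7 fell in SK-N-BE(2) (29.7% of all genes called) and 1 rose and 3 fell in SH-SY5Y (32.6%). Of the IGF2 mRNA-binding proteins only IGF2BP3 passed the filter, and it rose in SH-SY5Y knockdown (0.51, limma adjusted p 6.85e-07) and had 0.10 in SK-N-BE(2) knockdown (0.199).

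**Figure D5:**
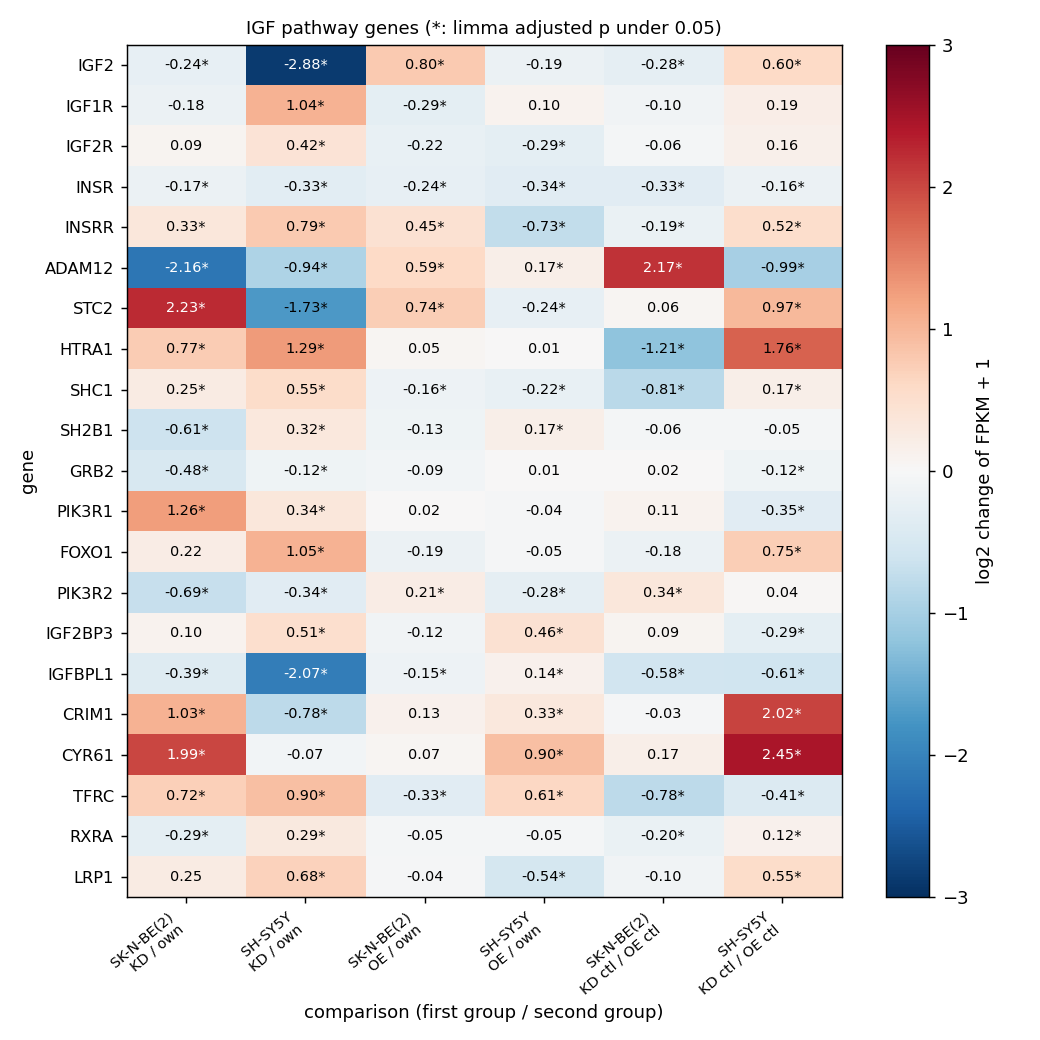
Log2 changes, on the log2(FPKM + 1) scale, of the named IGF system genes against the own control and between the controls, with asterisks where the limma adjusted p was under 0.05. IGF2 holds the lowest value, -2.88 in SH-SY5Y knockdown.

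HTRA1 is listed both among the proteases above and among the other genes that encode an IGFBP-type domain, and is counted in both. Of 6 tested other genes that encode an IGFBP-type domain, 4 rose and 2 fell in SK-N-BE(2) knockdown (55.7% of all genes called), and 1 rose and 2 fell in SH-SY5Y knockdown (56.0%), each against its own control. Against the overexpression control, 3 were higher and 2 lower in SK-N-BE(2) knockdown (47.7%), and 5 were higher and 1 lower in SH-SY5Y knockdown (58.2%). The median log2 change of the list in SH-SY5Y knockdown was -0.095 against the own control and 0.91 against the other, beside -0.011 and -0.027 over all tested genes. IGFBPL1, the closest of them by name, fell in both knockdowns, to a mean of 32.0 FPKM against 42.2 in SK-N-BE(2) (-0.39, SE 0.0475, limma adjusted p 6.88e-07) and to 11.7 against 52.3 in SH-SY5Y (-2.07, SE 0.0475, 7.26e-18). It was likewise lower than in the overexpression controls (-0.97 and -2.68). CYR61, a matrix protein of the CCN family, rose in SK-N-BE(2) knockdown (1.99, 8.29e-11) and had -0.074 in SH-SY5Y knockdown (adjusted p 0.662), where it was nonetheless higher than in the overexpression control (2.38, 2.30e-12). CRIM1, a membrane protein that binds bone morphogenetic proteins, rose in SK-N-BE(2) knockdown and fell in SH-SY5Y knockdown (1.03 and -0.78), but in SH-SY5Y knockdown it was higher than in the overexpression control (1.24, limma adjusted p 1.04e-12). Of 4 listed cell surface or nuclear partners of IGFBP3, 1 rose and 1 fell in SK-N-BE(2) knockdown (55.7% of all genes called) and 3 rose in SH-SY5Y knockdown (56.0%). TFRC, the transferrin receptor, rose in both (0.72 and 0.90), RXRA, a nuclear receptor, fell in SK-N-BE(2) and rose in SH-SY5Y (-0.29 and 0.29), and LRP1, an endocytic receptor, rose in SH-SY5Y (0.68, limma adjusted p 6.16e-05). In SK-N-BE(2) knockdown LRP1 had 0.25 (0.0801), and TFRC had -0.062 against the overexpression control (0.388).

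In SH-SY5Y the summed markers of fibroblasts and stroma were highest in knockdown and next in its own control, as was the IGFBP sum. Not every member followed this order: IGFBP7 was lower in knockdown than in that control. The 12 listed markers summed to between 306 and 315 FPKM in the knockdown libraries, between 158 and 164 in the knockdown control, between 72.6 and 74.1 in overexpression, and between 69.0 and 72.6 in the overexpression control. Of the 11 tested, 10 were called higher and 1 lower in the knockdown against either control, and 10 were called higher in the knockdown control than in the overexpression control. Over all tested genes, 56.0% were called in the knockdown against its own control, 58.2% against the overexpression control and 36.2% between the controls. COL1A2, a collagen gene, was under 1 FPKM on average in all 8 groups. In SH-SY5Y knockdown it was the only listed marker of fibroblasts and stroma under 1 FPKM in every library. In SK-N-BE(2) the sums were between 179 and 207 FPKM in knockdown, 161 and 168 in its control, 220 and 242 in overexpression and 191 and 199 in its control. The part of stromal or mesenchymal expression in the IGFBP values was not tested.

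The genes whose pattern over the 8 group means was nearest to a member were found by the root mean square difference of log2(FPKM + 1), each gene centred on its own mean. The tested gene nearest to IGFBP3 was LRRC17, at a difference of 0.926, against a spread of 1.73 for IGFBP3 itself. Such a difference tends to grow with the spread, and IGFBP3 had the widest spread of the members. TIMP1, an inhibitor of matrix metalloproteases, followed at 1.03, then IFITM3 (1.04), LAYN (1.05) and ADRA2A (1.06). LRRC17 averaged 35.5 FPKM in SH-SY5Y knockdown against 1.23 in its own control, and in SK-N-BE(2) it was highest in knockdown too. IGFBP5 lay nearest to HTRA1 (0.314) and to EGFR, the epidermal growth factor receptor (0.364), against its own spread of 1.04. IGFBP2 lay nearest to HDAC1 (0.0475) and GOLGA6L10 (0.0565), and IGFBP4 to BLVRB (0.234) and NDNF (0.246). IGFBP6 lay nearest to BRI3 (0.107) and C1RL (0.108), which shares exons with C1R, and IGFBP7 to AL117336.2 (0.118) and CTBS (0.137), which shares exons with AL359762.3. Nearness over 8 groups is a description of these libraries.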

How the data were processed

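The members and gene lists were chosen with earlier results of these data known. Per the labels, total RNA was extracted with TRIzol and made into strand-specific TruSeq libraries for an Illumina NovaSeq. Per the submitters' processing notes, the tools were STAR, with no version, FastQC 0.11.2 and StringTie 1.3.1c, on hg38. The deposited values are FPKM per gene, made by the authors, for 60564 rows and 24 libraries. No source used here gives the annotation release, strand setting or depth, and precision rests on the spread of 3 libraries.

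The 15903 genes that reached 1 FPKM in 3 or more libraries were fitted on log2(FPKM + 1) with limma 3.58.1 in R 4.3.3, with trend and robust moderation, in 1 model of 8 groups with 16 residual degrees of freedom. Tests were two-sided at a Benjamini-Hochberg adjusted p under 0.05 over all tested genes. The fit was tested on simulated data. Libraries were called overlapping when the ranges of their FPKM met. FPKM normalization makes levels relative within a library, so a few abundant genes can shift the rest. Named genes were the members, NDUFS6, the ligands, receptors and IGFALS, the 3 genes of each other list with the smallest adjusted p in any comparison with the own control, and the genes nearest to each member. Exon overlaps came from GENCODE release 29 and promoter sequences from RefSeq. No libraries were near-identical: the smallest SD of the log2 difference between libraries was 0.190. Alternatives were a pseudocount of 0.1, no filter, a mean of at least 5 FPKM, TPM scaling (a fixed sum), median-of-ratios scaling, a replicate block, fits of the groups compared alone, and leaving out each library.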

Additional observations from a re-analysis of the deposited data

Results flagged for a closer look

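Several members differed in direction between the lines. On the log2 scale, IGFBP3 in overexpression against its own control was -0.75 in SK-N-BE(2) and 1.44 in SH-SY5Y, without overlap of libraries in either line, and this difference was not tested. IGFBP4 in the same comparison was 0.99 in SK-N-BE(2) and -0.58 in SH-SY5Y, and the tested difference between these responses was 1.57. Against the knockdown control, IGFBP4 in overexpression was 0.10 in SK-N-BE(2), not called, and -1.57 in SH-SY5Y. For IGFBP5 the tested difference between the overexpression responses against the own controls was 0.49. NDUFS6 itself was raised far less in SK-N-BE(2) overexpression than in SH-SY5Y overexpression.

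Against the control of the other construct, IGFBP5 in knockdown was -0.51 in SK-N-BE(2) and 3.10 in SH-SY5Y, and in overexpression it was 0.98 in SK-N-BE(2) and -1.71 in SH-SY5Y. In overexpression against the knockdown control, IGFBP6 was 0.46 in SK-N-BE(2) and -0.57 in SH-SY5Y, and IGFBP7 was 0.43 in SK-N-BE(2) and -0.82 in SH-SY5Y. IGFBP7 in knockdown against its own control was 0.98 in SK-N-BE(2) and -0.47 in SH-SY5Y. In each of these pairs all libraries moved one way in SK-N-BE(2) and the other way in SH-SY5Y, and the difference itself was not tested. IGFBP7 was near or below 1 FPKM in all groups. It entered the fit only through SK-N-BE(2) knockdown and the SH-SY5Y knockdown control, so its differences here are not independent of the filter.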

How the results depend on the processing

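With no depth known, the levels of IGFBP6 and IGFBP7 near 1 FPKM are the least certain. With a pseudocount of 0.1 the IGFBP3 log2 differences were 5.01 (SK-N-BE(2) knockdown, own control), 3.76 (SH-SY5Y knockdown, own control), 5.40 (SH-SY5Y knockdown, overexpression control), 1.70 (SH-SY5Y overexpression, own control), 3.38 (SK-N-BE(2) overexpression, knockdown control), -4.17 and 1.64 (knockdown minus overexpression control in SK-N-BE(2) and SH-SY5Y), -0.066 (line) and -2.49 (overexpression response, SK-N-BE(2) minus SH-SY5Y). Scaled to a fixed sum (TPM) they were 4.92, 5.23, 1.68, 3.25, -4.09, 1.60, -0.037 and -2.52 in the same comparisons, leaving out SH-SY5Y knockdown against its own control, where the value moved by less than the spread between libraries. Scaled by median of ratios they were 4.25 (SK-N-BE(2) knockdown, own control), 0.87 (SK-N-BE(2) knockdown, overexpression control) and 0.20 (line). IGFBP3 thus turned between the lines in 2 settings, and it turned in SH-SY5Y overexpression against the knockdown control without overexpression replicate 3 (-0.0072, against 0.051). Under TPM, IGFBP2 (-0.041) and IGFBP4 (-0.013) in SH-SY5Y knockdown against its own control turned as well. IGFBP7 in SK-N-BE(2) knockdown against its own control was 2.59 with a pseudocount of 0.1 and 2.00 under TPM, against 0.98. TPM values were larger than the FPKM values, while the added 1 and the filter at 1 were kept. The TPM setting therefore also lowered the weight of the added 1. In SK-N-BE(2) overexpression against its own control, the IGFBP7 call was lost without a filter (adjusted p 0.0913), under TPM (0.0563) and with the groups compared alone (0.130). The IGFBP2 call in SK-N-BE(2) overexpression against the knockdown control was lost without a filter (0.0739) and with the groups compared alone (0.180), and its call between the SH-SY5Y controls without a filter (0.0619). Between the SK-N-BE(2) controls, IGFBP2 was called under TPM (0.00164) and with the groups compared alone (0.00470), and IGFBP6 with a pseudocount of 0.1 (0.0163), under TPM (0.0127) and with the groups compared alone (0.0315). A filter at a mean of at least 5 FPKM left 7219 genes to test instead of 15903, so a smaller count there need not be a smaller share. Counts of called genes with this filter were 4844, 4593, 4269 and 4843 in knockdown (own control in SK-N-BE(2) and SH-SY5Y, then the overexpression control), against 8855, 8900, 7592 and 9260. They were 2886 in SH-SY5Y overexpression (5186), 3824 and 4542 in overexpression against the knockdown control (6406 and 8810), 3230 and 3207 between controls (5487 and 5763), 5940 between lines (12292) and 3375 in the interaction (5850). With the groups compared alone, 966 genes were called in SK-N-BE(2) overexpression (4716) and 4071 against the knockdown control (6406). Leaving out 1 library gave between 2754 (without overexpression replicate 2) and 6197 genes in SK-N-BE(2) overexpression, and 3082 without control replicate 3. The cause of the changes with the groups compared alone or without 1 library was not tested. Under TPM, the share of called genes that were higher was 61.1% against 49.2% (SK-N-BE(2) knockdown, own control), 36.0% against 47.0% (SH-SY5Y knockdown, own control), 62.8% against 50.4% (SK-N-BE(2) overexpression, knockdown control) and 25.9% against 45.1% (SK-N-BE(2) controls). With TPM 22783 genes passed the filter instead of 15903, so these shares come from unlike sets of genes. Replicate numbers were not used as pairs: deviations of same-numbered libraries had a median correlation of 0.00534, with 10 of 84 pairs above 0.1. The highest was 0.438, so the median does not show that no libraries were paired. With the replicate block, 8971 and 8981 genes were called in the knockdowns against their own controls, and no call of a member changed.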

Other observations

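IGFBP7-AS1, transcribed from the strand opposite to IGFBP7, was at 1.09, 1.19 and 0.964 FPKM in SH-SY5Y knockdown, against 0.212, 0.320 and 0.297 FPKM in its own control, where IGFBP7 was lower in the knockdown. In SK-N-BE(2) knockdown, where IGFBP7 was higher, it was at 0.0714, 0.192 and 0.201 FPKM, against 0.0988, 0.0968 and 0.00884 FPKM in its own control. It reached 1 FPKM in too few libraries to be tested.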
